A study of Mus musculus with 16 samples.

Results

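The long non-coding RNA MUNC, in its spliced form, was probed inside mouse muscle precursor cells and again after the RNA had been extracted from such cells. The members are the libraries of the spliced form in those 2 environments, 8 of the 16 libraries of the series, which form 4 of its 8 reactivity profiles. Each profile pairs a library treated with 5NIA with a library treated with its solvent, DMSO. Residues read in upper case in the deposited sequence were used where at least 1000 reads covered them in both libraries of every pair, which left 468 of the 518 residues of the spliced RNA.

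All libraries came from C2C12 PAX7 NEG cells, a subline of mouse C2C12 myoblasts, kept in growth medium with 20% FBS and overexpressing spliced MUNC. In the in-cell group, 2 replicates of living cells received 25 mM 5NIA or DMSO before the RNA was taken out. In the cell-free group, 2 replicates of RNA received the same reagents after extraction. The RNA therefore comes from overexpression in both groups, and the labels name neither a promoter nor a clone. Amplicons of 1 RNA were sequenced, so no marker gene was read against which the cell type could be checked. The labels do not say whether replicates were separate cultures, and the p-values below then measure only the spread between these samples.

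MUNC is transcribed near the gene of the myogenic regulator MyoD and takes part in the expression of muscle genes. SHAPE reagents such as 5NIA acylate the ribose 2′-hydroxyl of flexible nucleotides, while nucleotides held in base pairs react little. Reverse transcription under mutagenic conditions reads through the adduct and leaves a mutation in the cDNA, so the mutation rate at a residue, less the rate in DMSO, reports how flexible that residue is. A residue that proteins or other molecules hold in the cell can react less there than in extracted RNA, and the comparison addresses where the RNA differs between these environments.

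RefSeq (GRCm38.p6) lists Munc among the synonyms of Gm45923, which it annotates as a lncRNA on the plus strand of chromosome 7 from 46371403 to 46372492. The first 50 residues of the spliced RNA matched chr7:46371403-46371452 letter for letter, which places its 5′ end at the annotated start. The genomic form of the RNA is 1083 residues long and carries an insert of 565 residues after residue 130 of the spliced form. The first 50 residues are shown because they hold the CH1 segment, residues 6 to 34, which another construct of the study deletes. A placement at 7 to 35 matches equally well, and 1 mismatch to that construct remains elsewhere. The hairpins after it are those of the authors' cell-free pairing model on which results below turn, with the paired strands in capitals and the residues they enclose in lower case. Positions are counted from 1 at the 5′ end of the spliced RNA.
Residues 1 to 50: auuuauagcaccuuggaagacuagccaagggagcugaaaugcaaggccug
Hairpin 11 to 30, inside CH1: CCUUGGaagacuagCCAAGG
Hairpin 178 to 200: GCAGCAUacuguuggaAUGUUGC
Hairpin 239 to 263: GCCUCUGCUUugccuGGGCAGAGGC
Hairpin 329 to 343: UAGCAcauuuUGCUA
Hairpin 456 to 487: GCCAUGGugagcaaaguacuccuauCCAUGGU

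The next sequences surround residues whose reactivity was lower in both in-cell profiles. They are those with the smallest p in the test of normalised reactivity below, and those past the size rule with the same sign in both replicates. Each has 10 flanking residues on either side, and the residue itself is in capitals.
A162: acuuaugaugAaccccacauc
A238: caggcaaaccAgccucugcuu
C240: ggcaaaccagCcucugcuuug
A335: cuuguagcacAuuuugcuaaa
A345: auuuugcuaaAuucaaguaua
A401: cacucgcuugAcacuuaaacc

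The last set surrounds the 6 residues at which in-cell replicate 2 alone had 5NIA mutation rates of at least 5%, again with the residue in capitals.
G76: aaucaaagggGccaccuaugg
A147: gucaaaugaaAgagcacuuau
C246: ccagccucugCuuugccuggg
G255: gcuuugccugGgcagaggcag
A364: uaaggauagaAaucaaaagag
G400: ucacucgcuuGacacuuaaac
C246 and G255 lie on opposite strands of the hairpin at 239 to 263, and G76 lies in the helix that joins residues 73 to 77 with 102 to 106.

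Depth differed between the libraries, and in-cell replicate 2 was the shallowest with 5NIA. The 5NIA libraries had a median effective depth per residue of 185098 and 32424.5 cell-free, in the order of replicates 1 and 2, and of 147632 and 11977 in cells. The median residue carried 1547.5 and 459 mutations in the cell-free 5NIA libraries, 430.5 in in-cell replicate 1 and 20 in in-cell replicate 2. At the median of in-cell replicate 2, the rate was 0.167% (20 mutations in 11977 reads, Wilson 95% interval 0.108% to 0.258%, counting error only). In-cell replicate 2 stood apart from the other profiles, with 5NIA rates below the DMSO rate at 73 residues against 2 and 19 cell-free and 13 in in-cell replicate 1. The in-cell replicates are therefore given separately throughout.

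5NIA left fewer mutations in the RNA when cells were treated. The median 5NIA rate over the 468 residues was 0.988% and 1.45% in the cell-free libraries, and 0.330% and 0.176% in the in-cell libraries. The median DMSO rate was 0.102% and 0.241% cell-free and 0.101% and 0.0909% in cells. Subtracting residue by residue gave median rate differences of 0.804 and 1.08 percentage points cell-free and 0.177 and 0.0851 in cells. The in-cell medians were the 2 lowest, and they differed from each other, replicate 1 having the larger one.

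Averaged over residues, extracted RNA gave 1.51 ± 0.268 percentage points and RNA in cells 0.290 ± 0.00252 (SD, n = 2 each), a 5.21-fold lower mean in cells (exact permutation test, two-sided, p = 0.333, the smallest that 2 against 2 samples can give). The near-equal in-cell means hid a difference between the replicates, since the mean of in-cell replicate 2 fell to 0.112 without the 6 residues printed above, while that of in-cell replicate 1 was 0.292 without them. The mean DMSO rate was 0.244% ± 0.105 cell-free and 0.139% ± 0.0305 in cells (SD, n = 2 each), with cell-free values of 0.170% and 0.319% and in-cell values of 0.160% and 0.117%. Those groups did not overlap, but cell-free replicate 1 and in-cell replicate 1 were closer to each other than to the other replicate of their own group (exact permutation test, two-sided, p = 0.333).

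**Figure D1:**
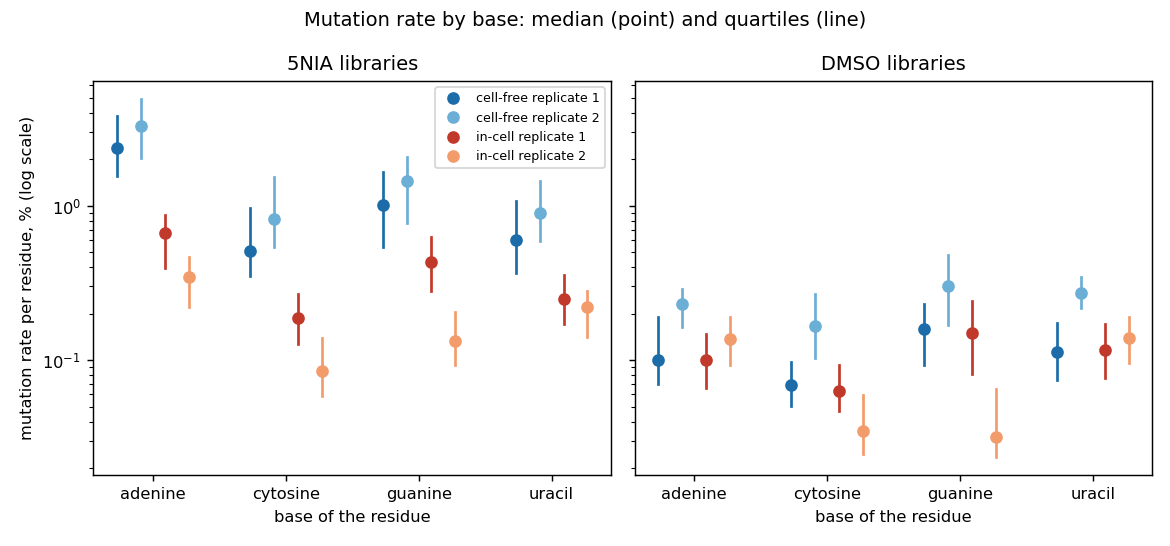
Mutation rate per residue in percent, on a log scale, by the base of the residue in the 5NIA libraries (left) and DMSO libraries (right). Points are medians and lines run between the quartiles over the residues of that base. At adenines the 5NIA medians are 2.35% and 3.30% cell-free and 0.665% and 0.343% in cells, and in the DMSO panel in-cell replicate 2 stands low at cytosines and guanines.

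The lower 5NIA rate in cells held for each of the 4 bases. At the 134 A residues the median rate rose over DMSO by 2.20 and 3.08 percentage points in extracted RNA, and by 0.537 and 0.176 in cells. At the 126 G residues it was 0.755 and 0.984 cell-free, and 0.195 and 0.0803 in cells. The 111 C residues had 0.391 and 0.574 cell-free and 0.0960 and 0.0428 in cells. The 97 U residues had 0.431 and 0.581 cell-free and 0.0958 and 0.0624 in cells. No in-cell median reached a cell-free one at any base.

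The fall was of similar size at all bases in replicate 1 and of unequal size in replicate 2. Between the same-numbered replicates the median rate difference was 4.09-fold lower in cells at A, 4.07-fold at C, 3.88-fold at G and 4.50-fold at U in replicate 1. In replicate 2 it was 17.5-fold lower at A, 13.4-fold at C, 12.3-fold at G and 9.31-fold at U. Whether the bases differed in this was not tested.

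Adenines were the most reactive base in extracted RNA, and by a ratio of rates their lead was smaller in both in-cell profiles. It was measured as the log2 ratio of the mean 5NIA to the mean DMSO rate at A, less the average of that ratio at C, G and U. The lead was 1.57 and 1.99 cell-free, 1.23 in in-cell replicate 1 and 0.23 in in-cell replicate 2. Without the 6 residues it was 1.45 and 1.93 cell-free and 1.18 and 0.49 in cells, so the value of in-cell replicate 2 depended on them. The means were 1.78 ± 0.30 cell-free and 0.73 ± 0.71 in cells (SD, n = 2 each; exact permutation test, two-sided, p = 0.333). The groups did not overlap. The 5NIA rate in this ratio includes the DMSO rate, so the lead can shrink even when all bases fall by the same fold. By the median rate difference, the fall in replicate 1 was 4.09-fold at A, between 3.88-fold at G and 4.50-fold at U. The smaller lead in in-cell replicate 1 therefore does not show a loss particular to adenines. In replicate 2 the fall was largest at A, 17.5-fold against 9.31-fold at U to 13.4-fold at C.

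The 5NIA rate was lower in cells at most single residues. At 441 of 468 residues (94.2%) both in-cell rates were lower than either cell-free rate, and at 0 (0%) they were higher than either. With the DMSO rate subtracted these counts were 409 (87.4%) and 2 (0.427%), the latter being G61 (0.00510 and -0.144 percentage points cell-free against 0.113 and 0.0679 in cells) and C246 (-0.477 and 0.0766 against 0.176 and 10.3). edgeR's quasi-likelihood test on the mutation counts, with the log depth of each residue as offset, called 334 of 468 residues (71.4%) at a Benjamini-Hochberg adjusted p under 0.05, 333 of them lower in cells (71.2%) and 1 higher (0.214%). The median log2 difference was -2.22, a 4.67-fold lower rate in cells. The count moved with each replicate left out, where the only complete pair supplies the spread for both groups. At C240, described below, the log2 difference was -3.93 without cell-free replicate 1 and -3.51 without cell-free replicate 2. It was -4.30 without in-cell replicate 1 and -3.36 without in-cell replicate 2.

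That test includes the fall that most residues share. With the median change set to about 0, by TMM scaling or by DESeq2's size factors, edgeR called 0 residues, with 58 and 62 at an unadjusted p under 0.05. C240 still had, with TMM, a log2 difference of -1.48 and C431 one of -1.30 (edgeR adjusted p = 0.380 for both), and a p above the threshold does not show that a residue did not differ. Without such scaling, 122 of the 134 A residues (91.0%) were called lower, 84 of 111 C (75.7%), 76 of 126 G (60.3%) and 51 of 97 U (52.6%). Of the residues unpaired in the cell-free model 181 of 214 were called lower (84.6%), against 152 of 254 paired ones (59.8%). The median fall was 5.63-fold at A and at unpaired residues, 4.88-fold at C, 3.83-fold at G, 3.73-fold at paired residues and 3.43-fold at U. These shares and folds do not subtract the DMSO rate, so residues near their DMSO rate can fall less. With it subtracted and replicates averaged, the log2 fold of the median rate difference was 2.89 at A, 2.80 at C, 2.66 at G and 2.68 at U. It was 2.89 at unpaired and 2.56 at paired residues, so the classes were then closer together.

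The 5 largest falls past the threshold that both replicates shared in sign were at C240, C431, C393, A162 and G239. At C240 the 5NIA rates were 2.73% and 3.67% cell-free and 0.312% and 0.162% in cells. The fitted rate at C240 was 13.2-fold lower in cells (edgeR adjusted p = 0.00681). C431, enclosed by the helix that joins residues 410 to 416 with 438 to 444, had 1.43% and 2.08% cell-free and 0.147% and 0.139% in cells. C393 had 1.23% and 2.42% cell-free and 0.227% and 0.0703% in cells.

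At A162 the rates were 5.77% and 8.26% cell-free and 0.752% and 0.499% in cells, for a fitted rate 11.2-fold lower (edgeR adjusted p = 0.00779). G239, the neighbour of C240 at the foot of the same hairpin, had 1.23% and 3.01% cell-free and 0.237% and 0.146% in cells. At all 5 residues each in-cell rate was below each cell-free rate.

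The single residue called higher in cells was G76. Its 5NIA rates were 0.466% and 0.699% cell-free, 0.458% in in-cell replicate 1 and 16.1% in in-cell replicate 2. The call (log2 difference 3.83, edgeR adjusted p = 0.0169) thus rested on in-cell replicate 2, and in-cell replicate 1 was at the level of cell-free replicate 1.

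Residues with the highest rates in extracted RNA also had rates above the typical residue in cells. At 38 residues the 5NIA rate reached 5% in at least 1 cell-free library and in no in-cell library. They comprised 34 A, 2 G, 1 C and 1 U, where A makes up 28.6% of all residues. All 38 were unpaired in the model, against 45.7% of all residues. The model is of the cell-free RNA, so this is no independent check. The 38 residues had a median 5NIA rate of 4.97% and 6.83% cell-free, 1.06% in in-cell replicate 1 and 0.489% in in-cell replicate 2. Both in-cell values were above the in-cell medians over all residues of 0.330% and 0.176%. Since these residues were taken by their cell-free rate, the lower in-cell values are a description.

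The authors' normalised reactivity is the rate difference times 1 factor per profile, so it removes the overall fall and shows which residues stand high or low within a profile. The factor was 37.4 and 28.9 for the cell-free profiles and 168 and 388 for the in-cell profiles. The median reactivity was then 0.301 and 0.312 cell-free and 0.297 and 0.339 in cells. Reactivities of at least 1 were found at 70 and 69 residues cell-free and at 69 residues in each in-cell profile. In-cell replicate 2 had a reactivity for 456 residues, 35 to 490, and the other profiles for all 468.

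**Figure D2:**
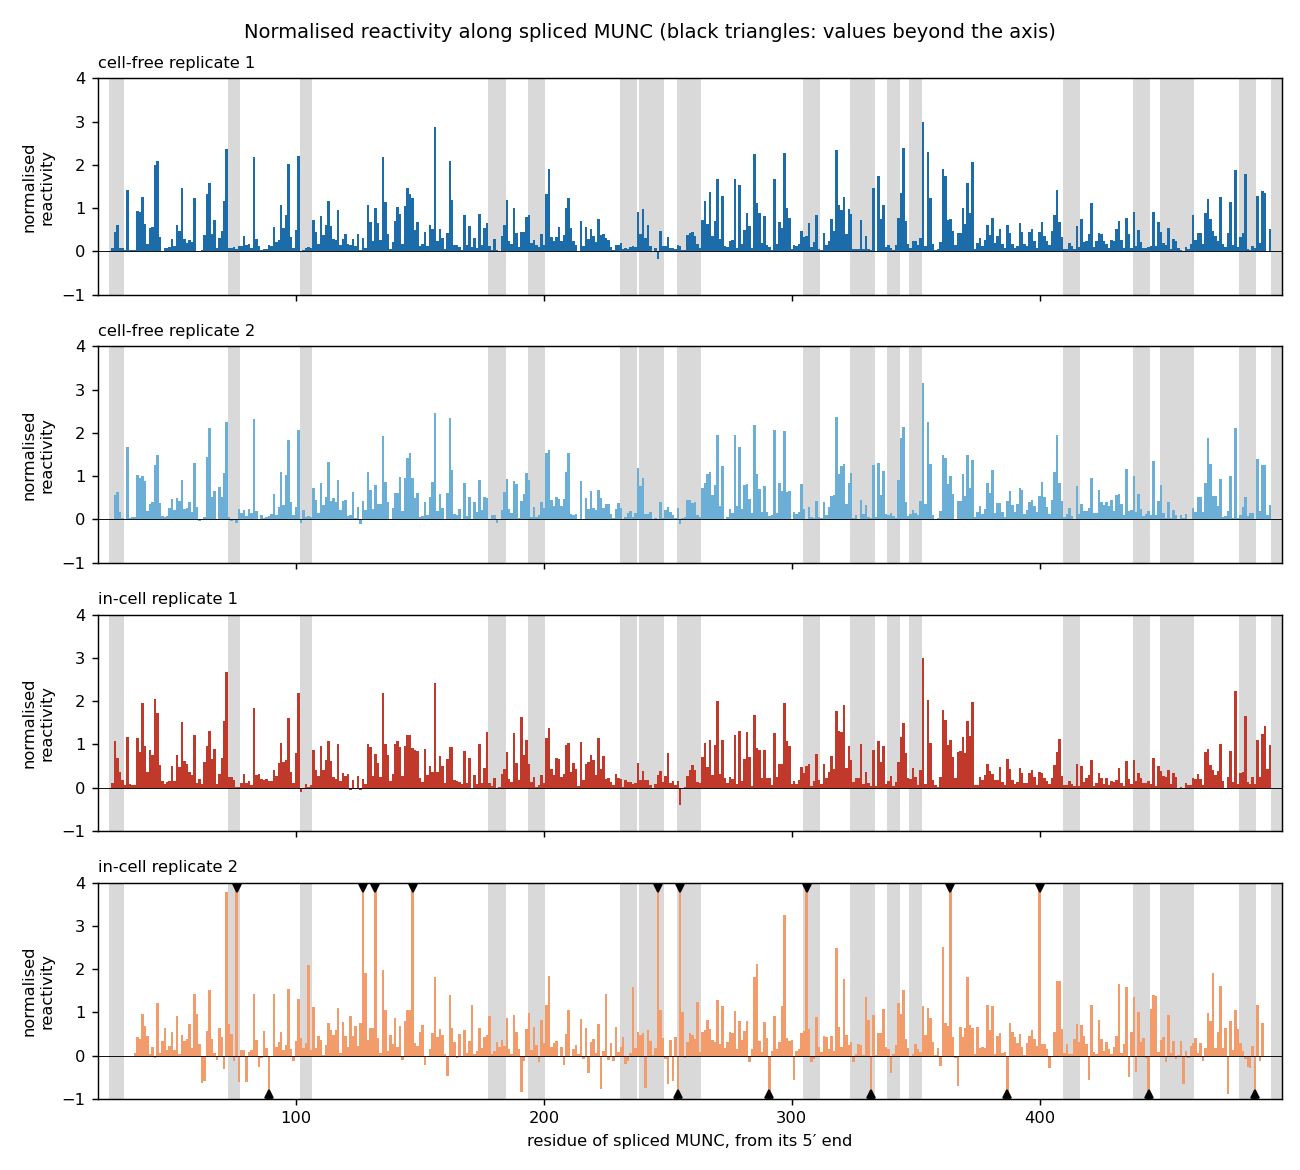
Normalised reactivity, with no unit, at each residue of spliced MUNC in the 4 profiles. Bars are residues, grey bands mark the strands of helices of at least 5 stacked pairs in the cell-free model, and black triangles mark values above 4 or below -1. The first 3 profiles share their peaks, while in-cell replicate 2 has 9 residues above 4 and 7 below -1.

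In-cell replicate 1 kept the order of reactivities of the extracted RNA. Across 468 residues, which are not independent of each other, its Spearman correlation was 0.907 with cell-free replicate 1 and 0.846 with cell-free replicate 2, near the 0.914 between the cell-free replicates. In-cell replicate 2 reached 0.513 and 0.521 with the cell-free profiles across 456 residues. The 5 residues with the highest mean cell-free reactivity were all adenines outside helices. A353, just after a helix that ends at residue 352, had 2.98 and 3.16 cell-free, 2.99 in in-cell replicate 1 and 1.15 in in-cell replicate 2. A156 had 2.89 and 2.47 cell-free, then 2.42 and 1.81 in cells, and A355 had 2.30 and 2.25, then 2.03 and 1.10. These 3 residues were lower in in-cell replicate 2 than in the other profiles.

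A72, which precedes the helix strand at 73 to 77, ran the other way, with 2.36 and 2.26 cell-free and 2.68 and 3.78 in cells. A318 had 2.36 and 2.37 cell-free and 1.77 and 2.49 in cells, so its groups overlapped.

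Along the RNA, the size of the fall in cells was uneven in replicate 1. In windows of 50 residues the median rate difference was 2.70-fold lower in cells at residues 26 to 75 and between 3.51-fold and 4.58-fold lower in the 6 windows from 76 to 375. It was 6.41-fold lower at 376 to 425 and 5.54-fold lower at 426 to 475. On the scale of normalised reactivity, the median of the first window was 0.300 cell-free and 0.499 in cells, and that of the window 376 to 425 was 0.324 and 0.226. Replicate 1 was thus relatively more reactive in cells at the measured 5′ end and less reactive in the 2 windows from 376 to 475.

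Replicate 2 did not repeat this order. Its fall ran from 7.83-fold at 226 to 275, the window with the most paired residues (35 of 50), to 22.1-fold at 476 to 493, a window of 18 residues. In its first window the median reactivity was 0.367 cell-free and 0.382 in cells. The cell-free value covers residues from 26 on and the in-cell value only those from 35 on, so their order has no clear meaning. At 376 to 425 the medians were 0.349 and 0.298. The medians of 2 windows shifted by over 0.05 with the same sign in both replicates, lower in cells at 376 to 425 and higher at 126 to 175. The shift at 376 to 425 in replicate 2, -0.0505, was barely of that size. The 2 cell-free medians also differed by over 0.05 in some other windows, with 0.152 and 0.210 at 226 to 275 for example. The shifts were not tested and are a description.

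**Figure D3:**
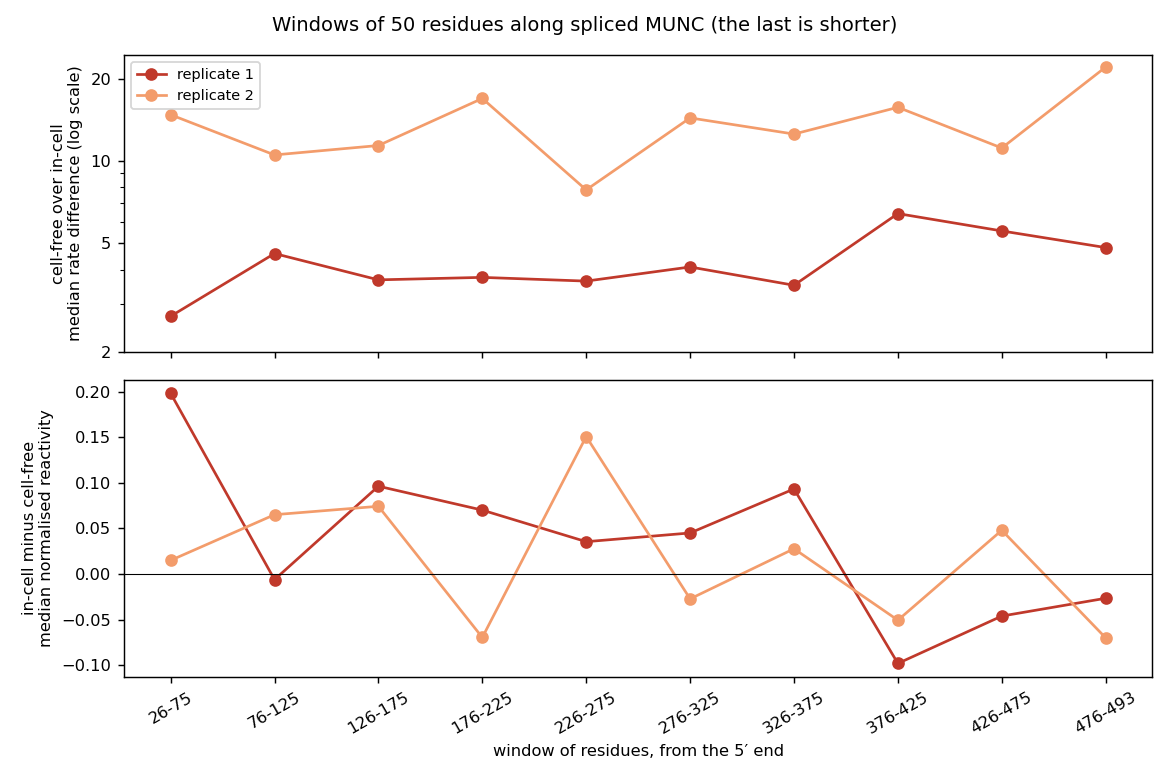
Windows of 50 residues along spliced MUNC, the last with 18, for same-numbered replicates. The upper panel gives the cell-free over the in-cell median rate difference on a log scale, from 2.70 to 6.41 in replicate 1 and from 7.83 to 22.1 in replicate 2. The lower panel gives the in-cell minus the cell-free median normalised reactivity, where the replicates share their sign in some windows and not in others. In-cell replicate 2 had reactivities only from residue 35 to 490, so its first and last points there compare medians over unlike residues.

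Residues that the model leaves unpaired were more reactive than paired ones in all 4 profiles. The model is the authors' table of pairing probabilities for the cell-free RNA with both replicates joined. How the cell-free reactivities entered it is not stated, so its fit to them is no independent check. With paired meaning a summed probability of at least 0.5, there were 254 paired and 214 unpaired residues. The median reactivity of unpaired residues was 0.596 and 0.598 cell-free and 0.604 and 0.518 in cells. That of paired residues was 0.162 and 0.174 cell-free and 0.190 and 0.259 in cells. The ratio of the 2 medians was 3.68 and 3.43 cell-free, 3.18 in in-cell replicate 1 and 2.00 in in-cell replicate 2.

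The area under the ROC curve gives the chance that a random unpaired residue is more reactive than a random paired one. It was 0.771 and 0.782 cell-free, 0.756 in in-cell replicate 1 and 0.656 in in-cell replicate 2 (exact permutation test, two-sided, p = 0.333). Each in-cell area was below each cell-free one, in-cell replicate 1 by a small margin. Since adenines are more often unpaired, the area was also taken within each base and averaged, which gave 0.739 and 0.755 cell-free and 0.736 and 0.608 in cells. In in-cell replicate 2 the area was 0.739 among A residues and 0.530, 0.576 and 0.588 among C, G and U, so adenines carried most of the separation there. In in-cell replicate 1 those areas were 0.810 at A, 0.671 at C, 0.756 at G and 0.706 at U.

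On the unscaled rates, the mean rate difference of unpaired over paired residues was 2.82 and 3.01 cell-free and 2.54 in in-cell replicate 1, but 0.843 in in-cell replicate 2. The last value turned on the 6 residues printed above, since the paired mean of in-cell replicate 2 was 0.310 percentage points with them and 0.0755 without, against unpaired means of 0.261 and 0.156.

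The strands of the model's helices were mostly below the median of their profile, less so in in-cell replicate 2. Their median was below it for 10 of 10 helices in both cell-free profiles, 9 of 10 in in-cell replicate 1 and 6 of the 9 with values in in-cell replicate 2. The 10 helices of at least 5 stacked pairs held 118 measured residues, with median reactivities of 0.126 and 0.117 cell-free, 0.159 in in-cell replicate 1 and 0.245 in in-cell replicate 2. The strands of the hairpin at 456 to 487 were among the least reactive, with 0.0945 and 0.0973 cell-free and 0.0875 and 0.0572 in cells. The strands of the longest helix, 10 pairs at 239 to 263, had 0.160 and 0.124 cell-free and 0.153 in in-cell replicate 1, but 0.438 in in-cell replicate 2.

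The hairpin at 178 to 200 had strands at 0.176 and 0.111 cell-free and 0.124 and 0.270 in cells. The 9 residues between the strands, 4 of them paired in the model and 5 unpaired, had a median of 0.459 and 0.591 cell-free, 0.753 in in-cell replicate 1 and 0.161 in in-cell replicate 2, so the in-cell medians lay on opposite sides of the cell-free ones. In the hairpin at 329 to 343 the loop had 0.753 and 0.560 cell-free and 0.589 and 0.511 in cells.

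CH1 and CH4 are the segments that other constructs of the study delete. The CH4 segment is printed here as the residues missing from that construct, at 270 to 296 (placements up to 275 to 301 match equally well).
CH4: agagcuuguaugaguaaguaccuacau
Its 27 residues, 12 of them paired, had a median reactivity of 0.501 and 0.473 cell-free, 0.537 in in-cell replicate 1 and 0.415 in in-cell replicate 2. In the CH1 segment, taken as residues 6 to 34, only 9 residues lie outside the primer site. They had 0.0823 and 0.0675 cell-free and 0.176 in in-cell replicate 1, and no reactivity in in-cell replicate 2.

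No residue passed the test of normalised reactivity when both replicates entered it. limma's moderated test called 0 of 456 residues (0%) at an adjusted p under 0.05, with 2 higher and 7 lower in cells at an unadjusted p under 0.05. The in-cell pair lay wholly below the cell-free pair at 87 of 456 residues (19.1%) and wholly above it at 64 (14%). The outcome depended on the in-cell replicate used. Without in-cell replicate 2 limma called 11 residues, and without in-cell replicate 1 it called 214. In each such fit the lone in-cell profile is assumed to vary like the cell-free pair.

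The 3 residues with the smallest p in the test of all profiles were lower in cells in every pairing of replicates. C240, the second base of the 239 to 263 hairpin, stood at 0.985 and 0.957 in extracted RNA against 0.379 and 0.530 in cells (limma adjusted p = 0.841). A238, unpaired and next to that hairpin, had 0.918 and 1.19 cell-free and 0.560 and 0.555 in cells. A401 had 0.688 and 0.859 cell-free and 0.340 and 0.278 in cells. In-cell and cell-free values did not overlap at these residues, and none passed the adjusted threshold. They were picked by p in this same comparison, which favours groups that do not overlap. Of all 456 residues, 19.1% lay wholly lower in cells and 14% wholly higher, so the separation is a description. G239, between A238 and C240, had 0.408 and 0.781 cell-free and 0.168 and 0.473 in cells, where the groups overlapped.

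A size rule was used within each replicate, since the authors' standard errors cover counting error only. To pass, a difference in reactivity had to reach 0.5 and to exceed the sum of both standard errors 1.96 times over. In replicate 1, 16 of 468 residues passed (3.42%), 5 higher and 11 lower in cells. In replicate 2, 107 of 456 passed (23.5%), 42 higher and 65 lower. Between the cell-free replicates, which share an environment, 11 of 468 passed (2.35%), and between the in-cell replicates 115 of 456 (25.2%). The count in replicate 1 was therefore little above that between like samples, and it was 37 (7.91%) when in-cell replicate 1 was set against cell-free replicate 2.

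**Figure D4:**
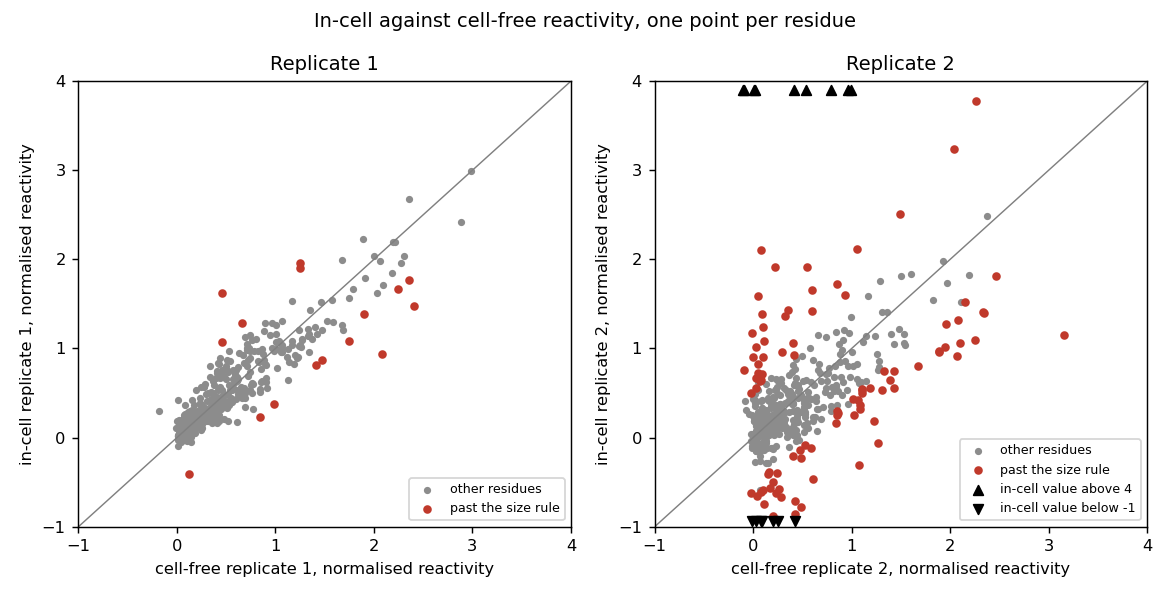
In-cell against cell-free normalised reactivity (no unit) for same-numbered replicates, 1 point per residue, with the line of equality. Red points passed the size rule and black triangles mark in-cell values outside the axis. The 468 points of replicate 1 lie near the line with 16 past the rule, and 107 of the 456 points of replicate 2 passed.

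Of the 16 residues past the rule in replicate 1, 11 were A, a base that makes up 28.6% of the 468 residues. Of the 11 lower ones 7 were unpaired in the model, against 45.7% of all residues. Between the cell-free replicates, 10 of the 11 residues past the rule were A and 2 were paired. A list rich in adenines and unpaired residues thus also arose between like samples. In replicate 2 the rule was met by 107 of all 456 residues (23.5%), with either sign. Both replicates met it at 5 residues, 3 of them with the same sign. Those 3 are 18.75% of the replicate 1 list and 2.80% of the replicate 2 list. These 3 were adenines and were lower in cells. At A162 the cell-free reactivities were 2.08 and 2.34 and the in-cell ones 0.937 and 1.40. A335, in the loop of the hairpin at 329 to 343, had 1.74 and 1.30 cell-free and 1.08 and 0.532 in cells.

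A345, in the unpaired stretch just after that hairpin, had 2.40 and 2.15 cell-free and 1.48 and 1.52 in cells. Each of these 3 residues was lower in both in-cell profiles than in both cell-free ones, and none passed limma's threshold (adjusted p = 0.841 for each). They were picked by size and sign in both replicates, so their lower values in cells are a description.

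The other residues of replicate 1 were less steady. G191, between the strands of the hairpin at 178 to 200 and paired in the model (summed probability 0.784), had the largest difference, with 0.460 and 0.422 cell-free and 1.63 in in-cell replicate 1, but -0.852 in in-cell replicate 2. A38, near the 5′ end, had 1.25 and 1.00 cell-free and 1.96 in in-cell replicate 1, against 0.962 in in-cell replicate 2. Of 15 residues of the list with a value in replicate 2, 8 had the same sign there, 53.3% against 49.3% of all 456 residues.

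The genomic form of MUNC, probed once in each environment, offered values from separate libraries for the same residues. Of 15 residues of the replicate 1 list with genomic values, 14 differed in the same direction between the genomic in-cell and cell-free profiles (93.3%), against 64.5% of all 467 residues. Of the 106 such residues of the replicate 2 list, 59 did (55.7%), against 52.7% of 455 residues. The genomic comparison has no replicate, so these shares have no test. A162 had 1.95 cell-free and 1.21 in cells in the genomic RNA, A335 had 1.87 and 1.01, and A345 had 2.73 and 1.53.

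The residues around the foot of the 239 to 263 hairpin were lower in cells in the genomic RNA too. C240 had 0.805 cell-free and 0.356 in cells there, G239 had 0.597 and 0.188, and A238 had 1.19 and 0.590. A401 had 1.99 and 1.05. G191 was higher in cells, with 0.336 cell-free and 1.41 in cells, as in replicate 1 of the spliced RNA and unlike its replicate 2.

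In-cell replicate 2 owed its largest values to single residues. Those 6 high-rate residues held 9739 of its 21240 5NIA mutations (45.9%), against 1.80% and 1.67% in the cell-free libraries and 2.77% in in-cell replicate 1. G255 had 5NIA rates of 1.86% and 2.04% cell-free, 1.63% in in-cell replicate 1 and 18.0% in in-cell replicate 2, and its reactivity in the last was 69.4. A147 had 3.38% and 3.64% cell-free, 0.619% in in-cell replicate 1 and 16.6% in in-cell replicate 2. G400 reached 16.8% in in-cell replicate 2 and 0.298% in in-cell replicate 1, C246 reached 10.6% and 1.27%, and A364 reached 6.58% and 0.713%.

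In the genomic RNA probed in cells the reactivities of the 6 residues ran from -0.434 at G255 to 1.53 at A147. The 9 residues above a reactivity of 4 in in-cell replicate 2 were these 6 with C127, U132 and G306, which were picked out by their values. No other spliced profile exceeded 3.16.

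The DMSO libraries, which received no reagent, differed between the in-cell replicates as well. Across 468 residues the DMSO rates of in-cell replicate 1 had a Spearman correlation of 0.964 with those of cell-free replicate 1, above the 0.738 between the cell-free replicates. Those of in-cell replicate 2 had between 0.229 and 0.246 with the other DMSO libraries. The median ratio of the in-cell to the cell-free rate was 0.952 in replicate 1 and 0.441 in replicate 2. The latter also reflects cell-free replicate 2, whose median ratio to cell-free replicate 1 was 2.20.

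In in-cell replicate 2 the low DMSO rates were at C and G. The median DMSO rate at C and G residues was 0.0967% and 0.224% cell-free, 0.0879% in in-cell replicate 1 and 0.0330% in in-cell replicate 2. At A and U it was 0.104% and 0.248% cell-free and 0.105% and 0.137% in cells. The ratio of C and G to A and U was 0.927, 0.903 and 0.839 in the first 3 and 0.241 in in-cell replicate 2. Of 237 C and G residues 185 had their lowest DMSO rate of the 4 libraries in in-cell replicate 2 (78.1%), against 69 of 231 A and U residues (29.9%).

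**Figure D5:**
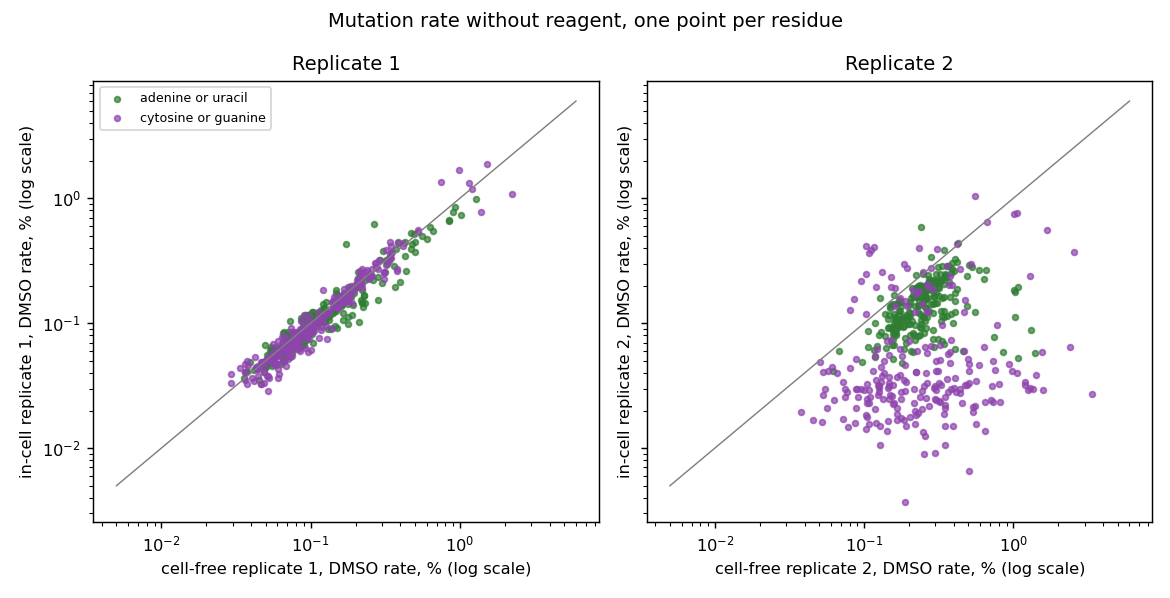
DMSO mutation rate per residue in percent, in-cell against cell-free for same-numbered replicates on log scales, with the line of equality. Green points are adenine or uracil and purple points cytosine or guanine. Replicate 1 follows the line, and in replicate 2 most cytosine and guanine points lie in a low band around the in-cell median of 0.0330%.

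Some residues of that library had high DMSO rates. At the 7 residues with a reactivity below -1 in in-cell replicate 2, 6 of them C or G, its DMSO rate ran from 0.363% to 1.04% and its 5NIA rate from 0.0655% to 0.305%. The DMSO rates of the same residues ran from 0.0486% to 0.348% and from 0.104% to 1.06% in the cell-free libraries and from 0.0410% to 0.415% in in-cell replicate 1. At 5 of the 7 the rate of in-cell replicate 2 was the highest of the 4. They were picked by their values, and what part the DMSO library played in the reactivities of in-cell replicate 2 was not tested.

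No single residue passed the test of the DMSO rates. Both in-cell rates lay below both cell-free rates at 169 of 468 residues (36.1%) and above both at 0. edgeR's quasi-likelihood test called 0 of 468 (0%) at an adjusted p under 0.05, with 12 at an unadjusted p under 0.05, all lower in cells, and DESeq2 also called 0. The 3 residues with the smallest p were cytosines. At C42 the DMSO rates were 0.0444% and 0.186% cell-free and 0.0378% and 0.0167% in cells. C120 had 0.115% and 1.20% cell-free and 0.109% and 0.0339% in cells, so its difference came from cell-free replicate 2 and in-cell replicate 2. C48 had 0.0715% and 0.252% cell-free and 0.0543% and 0.00890% in cells.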

How the data were processed

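Per the labels, MUNC amplicons were made by gene-specific mutagenic reverse transcription and PCR and read on a MiSeq. Each deposited profile gives, per the file headers, mutation counts by residue, effective depths, the mutation rate as a fraction, and a normalised reactivity, a score with its standard error. Per the file headers, pairing files give −log10 of pair probabilities. The aligner, mutation counter, folding program and build are not given in the sources used here. Columns left unmapped numbered 0. Lower-case primer residues, 25 at each end, and depths under 1000 were left out.

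Reactivities were compared with limma 3.58.1 (mean-variance trend), and mutation counts with edgeR 4.0.16's quasi-likelihood test in R 4.3.3, with log depth as offset. All groups entered with environment as the term, p-values were adjusted by Benjamini-Hochberg over all residues at 0.05, and the code was tested on simulated data. There edgeR recovered 0% of 2-fold changes, and of 4-fold changes 11% in DMSO and 35% in 5NIA counts. limma recovered 5% of simulated shifts of 0.5 and 96% of shifts of 1, with no outlying residues simulated. A count of 0 calls therefore does not show that no residue differed. Means over profiles were compared by exact permutation over all assignments of the profiles. DESeq2 1.42.0, other scalings, depth and count minimums, pairing files and each left-out replicate were alternatives. Median depth ran from 11977 to 241310 reads per residue.

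Residues were named by a rule: the 5 largest rises and falls past a test's threshold whose replicates had 1 sign, or else the 3 smallest p, the 5 largest past the size rule in each replicate, those past it in both, those with 5NIA rates of at least 5%, the 5 highest cell-free reactivities, and helices of at least 5 pairs. The genomic profiles were used only beside the spliced values of the same residues, after their results were seen. Members, lists and rule were chosen with earlier results of these data known.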

Additional observations from a re-analysis of the deposited data

How the results depend on the processing

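The direction of the mean rate difference, the mean DMSO rate, the adenine excess and the area under the ROC curve held under every alternative run for them, each left-out replicate included. These 4 have 2 samples a group and cannot reach p under 0.05, so this says nothing about their significance. The counts of residues moved more. For reactivity, limma called 331 residues on the unscaled rate difference in place of 0, and between 0 and 214 with a replicate left out. For DMSO rates, edgeR called between 0 and 2 with a replicate left out. For 5NIA rates it called 0 under TMM scaling and 0 with DESeq2's size factors, and between 0 and 363 with a replicate left out. The size rule in replicate 1 gave 2 residues at a difference of at least 1, 37 against the other cell-free replicate and 9 without all residues with a 5NIA rate of at least 5% in any library. In replicate 2 it gave 42 at a difference of at least 1 and 210 with both profiles scaled to the same mean. Scaled to the same mean without the 6 residues of in-cell replicate 2, an alternative chosen after seeing the data, it gave 15 and 97.

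The labels do not say whether same-numbered replicates belong together, so they were taken to share only a number. The differences between replicates in the 2 environments had a Pearson correlation of -0.02 for reactivity (0.13 without the 6 residues, Spearman 0.15), -0.18 for DMSO rates and -0.02 for 5NIA rates. With the replicate number as a block, edgeR called 0 residues for 5NIA rates, with 162 at an unadjusted p under 0.05, limma called 0 for reactivity and edgeR 0 for DMSO rates. The crossed pairing, added after seeing the data, gave 364 calls for 5NIA rates, 2 for DMSO rates and 0 for reactivity. Depth limits in-cell replicate 2 most, where the authors' median standard error of a reactivity was 0.163, against 0.00977 to 0.0299 in the other profiles.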
